A study of Mus musculus with 12 samples.

Results

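Nuclear receptors are transcription factors that carry a zinc-finger DNA-binding domain and a ligand-binding domain, and many of them are switched by lipid-soluble molecules such as hormones, bile acids, fatty acids and vitamins. Many sit on DNA with a retinoid X receptor (RXR) as partner, others as homodimers or monomers, and coactivator or corepressor proteins exchange on them when ligand arrives. In the liver they set hepatocyte identity and control bile acid, lipid, glucose and drug metabolism. The 33 nuclear receptor genes described here were taken by name from a list of the family and found by symbol in a table of 54232 Ensembl genes. Their values were not a rule of selection, but the list was drawn up with earlier results of these data known. A further 16 nuclear receptor genes of the mouse lie outside the list and are given briefly at the end.

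Liver mRNA was sequenced from 6 WT and 6 *Marchf6* LKO mice, with 1 library per mouse. All were male C57Bl/6J mice, 10 weeks old, kept on chow and fasted for 4 h. Both groups were homozygous for the floxed *Marchf6* allele, which encodes an endoplasmic reticulum ubiquitin ligase. LKO mice also carried AlbuminCre, whereas WT littermates did not, so the allele is recombined in hepatocytes while the RNA came from whole liver. The bulk counts cannot tell fewer cells of a type from less RNA per cell. Total counts ran from 14860414 to 22111926 reads per liver, and the correlation of log2 CPM (counts scaled to the library size) between livers ran from 0.9663 to 0.9802. The library numbers of the WT livers all precede those of the LKO livers, so an effect of library order cannot be told apart from one of genotype. *Marchf6* itself (listed as *March6*) had a mean of 241 normalized CPM in WT and 226 in LKO livers, with an adjusted p of 0.585 from edgeR, but counts over the whole gene include the exons outside the deletion and so do not check the genotype labels.

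The receptors differ in the loop of the first zinc finger that reads the DNA half-site, and the coding bases of this loop are shown because they divide the 33 genes into groups that the list did not use. The finger was found in the GENCODE M21 coding sequence of each gene by the spacing of its zinc-binding cysteines. In each line the capitals mark codons 2, 3 and 6 of the stretch, which encode the residues known to select the half-site.
Rxra: tgtGAGGGCtgcaagGGC
Hnf4a: tgtGACGGCtgcaagGGG
Nr2f6: tgcGAGGGCtgcaagAGT
Nr5a2: tgcGAAAGCtgcaagGGT
Esr1: tgcGAAGGCtgcaagGCT
Esrra: tgtGAGGCCtgcaaaGCC
Nr3c2: tgcGGCAGCtgcaaaGTC
On GRCm38 these bases lie in coding exons, for *Rxra* at chr2:27741787-27741804 on the plus strand (exon 5 of the transcript used), for *Hnf4a* at chr2:163551690-163551707 on the plus strand (exon 2) and for *Nr2f6* at chr8:71381035-71381052 on the minus strand (exon 1). Those of *Esr1* lie at chr10:4746768-4746785 on the plus strand (exon 4), those of *Esrra* at chr19:6920085-6920102 on the minus strand (exon 2) and those of *Nr3c2* at chr8:77085627-77085644 on the plus strand (exon 2), while the stretch of *Nr5a2* is split by an intron.

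The codons of *Rxra* spell glutamate, glycine and glycine, and 21 of the 33 genes encode this trio, among them the bile acid, xenobiotic, thyroid hormone, retinoic acid and fatty acid receptors. *Nr2f1*, *Nr2f2* and *Nr2f6* encode serine at the last position, and *Hnf4a* and *Hnf4g* encode aspartate at the first. The glucocorticoid and mineralocorticoid receptor genes *Nr3c1* and *Nr3c2* share glycine, serine and valine. *Esrra* and *Esrrg* encode glutamate, alanine and alanine, whereas *Esr1* and *Nr5a2* each stand alone in the list. The coding sequence of *Nr0b2* held no match to the finger, and this receptor is known to lack a DNA-binding domain and to act by binding other receptors.

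The livers expressed most of the family over a wide range of levels. Reads of more than 3 in at least 1 liver were found for 32 of the 33 genes, and 25 had a mean of at least 1 RPKM in WT livers, where RPKM is TMM-scaled CPM per kilobase of exon and allows genes to be compared. The exception was *Vdr*, the vitamin D receptor, which had 0 reads in 3 WT and 5 LKO livers and at most 3 reads in any liver. *Nr4a3* had 1 to 3 reads in WT and 0 to 10 reads in LKO livers, so that neither gene entered the test.

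The highest level belonged to *Hnf4a*, a receptor that keeps the hepatocyte program active, with 193 ± 34.1 RPKM (SD, n = 6) in WT and 185 ± 26.5 RPKM (SD, n = 6) in LKO livers. *Rxra*, the common partner receptor, followed with 114 ± 8.97 RPKM in WT and 99.2 ± 5.50 RPKM in LKO livers. *Nr1h4*, which encodes the bile acid receptor FXR, had 70.3 ± 6.59 RPKM in WT livers, and *Ppara*, the fatty acid sensor of fasting, had 43.8 ± 5.38 RPKM. Over the WT livers the ranges of these neighbours in the order did not overlap, from *Hnf4a* down to *Ppara*. *Hnf4a* and *Rxra* together made up 48.3% to 58.2% of the summed RPKM of the 33 genes.

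From *Ppara* down, the order of most neighbouring genes was not resolved, as their ranges in WT livers overlapped. The next places in WT livers were held by *Nr1i2* (35.2 RPKM), *Nr0b2* (21.3), *Nr5a2* (16.3), *Nr3c1* (13.9), *Nr2f6* (11.5) and *Nr1i3* (11.4). Of the 32 neighbouring pairs in the order, 4 had ranges that did not overlap in WT livers, the 3 at the top and *Hnf4g* above *Nr4a3*. The 10 highest genes were the same 10 in LKO livers, and they also remained the same 10 when the level was set per kilobase of the longest transcript. Summed over the 33 genes, the level was 534 to 623 RPKM (median 600.4) in WT and 520.1 to 602 RPKM (median 543) in LKO livers, so the ranges of the groups overlapped.

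**Figure D1:**
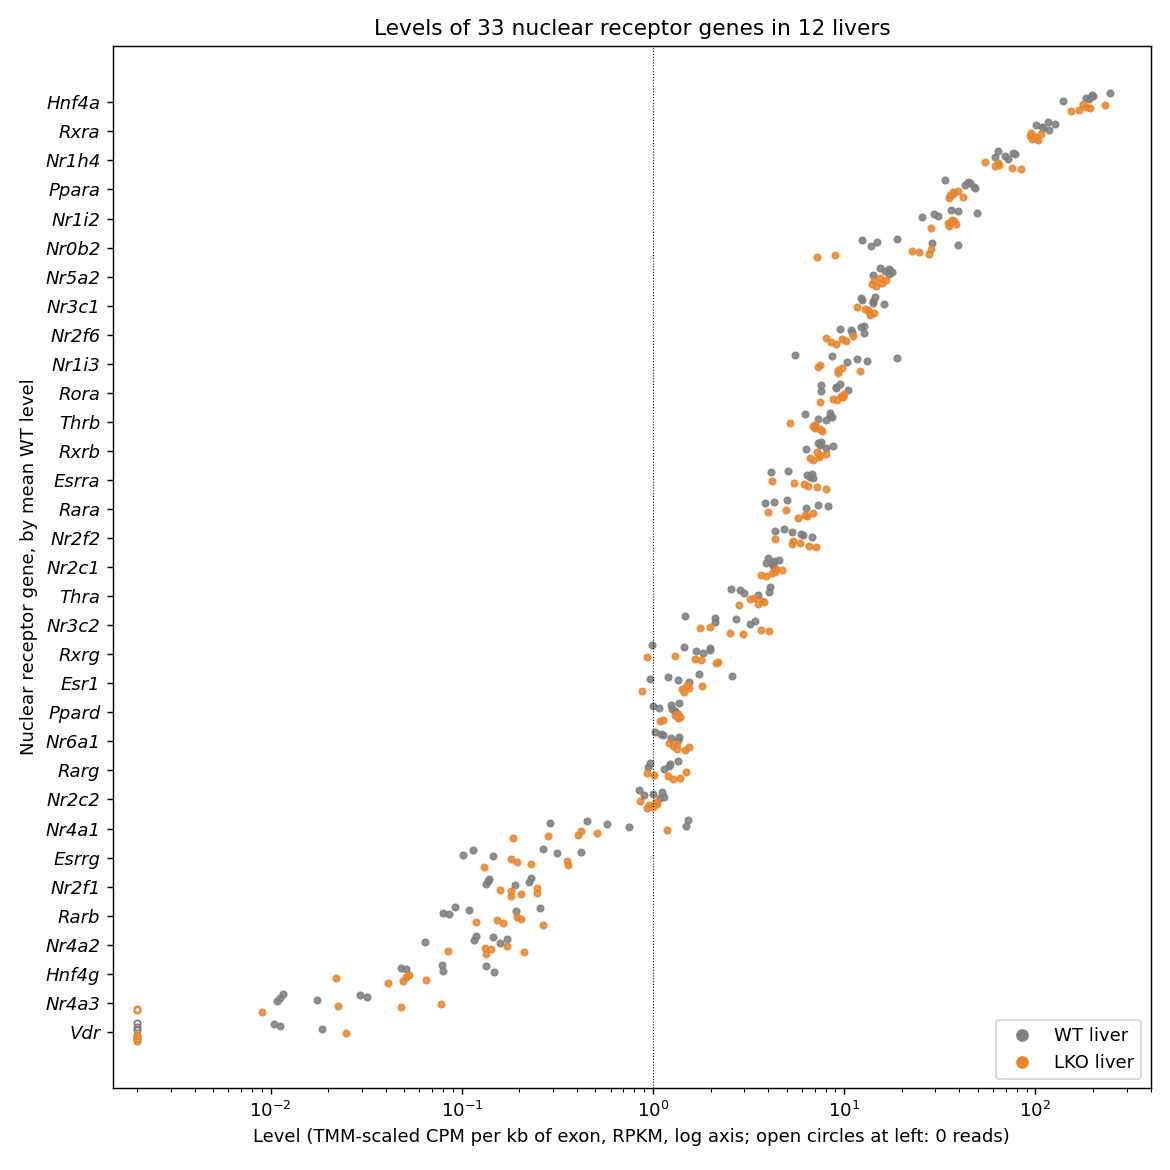
Level of each of the 33 genes in each liver (horizontal axis, RPKM, log scale; grey points WT, orange points LKO, n = 6 each; open circles at the left edge are livers with 0 reads), in the order of the mean WT level. *Hnf4a*, *Rxra* and *Nr1h4* stand apart at the top, *Ppara* overlaps *Nr1i2*, *Vdr* is at 0 in 8 livers, and the WT and LKO points of every gene overlap.

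Loss of *Marchf6* in hepatocytes was set against WT for each receptor with edgeR's quasi-likelihood test, fitted to all 17509 genes tested. None of the 31 receptors tested passed an adjusted p of 0.05, against 0.428% of all genes tested (75 genes). At an unadjusted p under 0.05 there were 3 receptors, *Nr2f6*, *Rxra* and *Ppara*, and the background was 11.7%. The WT and LKO livers overlapped for all 31 receptors, whereas 1.30% of all genes tested did not overlap. With other tools and filters, and with each liver left out in turn, the count of receptors past the threshold was 0, also with limma voom and DESeq2.

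The absence of calls came with narrow intervals for most receptors. In 22 of the 31 the 95% interval of the fold change lay within 1.5-fold in either direction (71.0%, against 57.1% of all genes tested), and in 28 it lay within 2-fold. The estimates fell on both sides of 0, with 16 receptors lower and 15 higher in LKO livers, a median log2 fold change of −0.04 and a median absolute log2 fold change of 0.10 (0.13 over all genes tested). Wide intervals belonged to genes with few reads, such as *Rarb* and *Hnf4g*, and to genes that varied between livers, such as *Nr0b2* and *Nr4a1*.

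**Figure D2:**
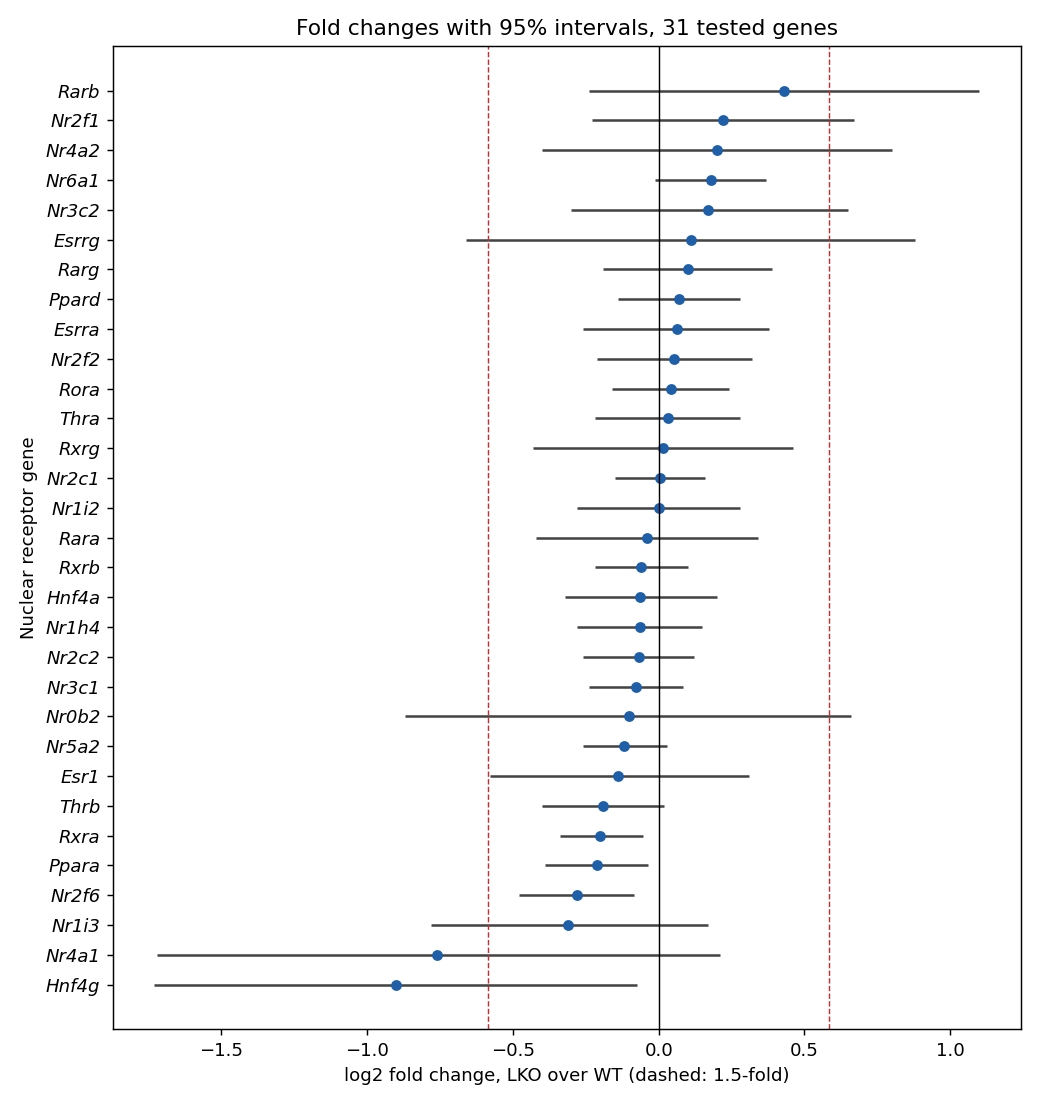
Log2 fold change of the 31 tested receptors, LKO over WT (points), with 95% intervals (lines); dashed lines mark 1.5-fold in either direction. The points run from −0.90 for *Hnf4g* to 0.43 for *Rarb*, and the intervals of 22 genes lie between the dashed lines. The interval of *Hnf4g* excludes 0, is drawn from its standard error and rests on at most 6 reads per liver.

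Among the RXR partners, *Rxra* had 551, 618 and 693 normalized CPM (lowest, median and highest) in WT and 510.3, 536 and 588 normalized CPM in LKO livers. All 6 LKO livers lay below the WT mean, and the groups overlapped at their edges. The log2 fold change was −0.20 (standard error 0.0667, 95% interval −0.34 to −0.053), with an unadjusted p of 0.0106 and an adjusted p of 0.247 by edgeR. Over the alternatives the adjusted p for *Rxra* ran from 0.0813 to 0.478. *Rxrb*, at 7.57 RPKM in WT livers, had a log2 fold change of −0.062, and *Rxrg*, at 1.66 RPKM, one of 0.016. *Rxra* held a median of 92.5% of the RPKM of the RXR genes in WT and 91.7% in LKO livers.

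*Ppara* had 129, 173 and 186 normalized CPM (lowest, median and highest) in WT and 136, 141 and 161 in LKO livers. The LKO livers were again all below the WT mean, but the lowest of the 12 livers was a WT one, replicate 1. The log2 fold change was −0.21 (standard error 0.0837, 95% interval −0.39 to −0.035), with an unadjusted p of 0.0222 and an adjusted p of 0.324 by edgeR. *Ppard*, the more widely expressed member of the family, had 1.21 RPKM in WT livers and a log2 fold change of 0.071, and *Ppara* held a median of 97.4% of the RPKM of these 2 genes in WT livers.

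*Nr2f6*, an orphan receptor of the COUP-TF group that mostly represses transcription, had 28.2, 34.7 and 38.0 normalized CPM (lowest, median and highest) in WT and 24.0, 28.0 and 33.1 in LKO livers. None of the LKO livers reached the WT mean, while the lowest WT liver lay within the LKO range. The log2 fold change was −0.28 (standard error 0.0930, 95% interval −0.48 to −0.085), with an unadjusted p of 0.00833 and an adjusted p of 0.232 by edgeR, the lowest adjusted p of the receptors. Of its 2983 bp of exon, 1622 bp also belong to exons of *Ocel1* on the opposite strand. The strand setting of the counting is not given in the sources used here, so how reads over the shared bases were counted is not known. *Ocel1* had a log2 fold change of −0.08 (adjusted p = 0.808, edgeR).

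*Nr2f6* held a median of 64.3% of the RPKM of the COUP-TF genes in WT and 60.6% in LKO livers, and most of the remainder was *Nr2f2* (5.56 RPKM in WT livers, log2 fold change 0.054). The share of *Nr2f6* likewise depends on how reads over the bases shared with *Ocel1* were counted. *Nr2f1* was near the lower limit, with 11 to 27 reads per liver. The other orphan receptors were *Rora* (8.86 RPKM in WT livers), a receptor tied to the clock, *Nr2c1* (4.19), *Nr6a1* (1.20) and *Nr2c2* (1.01). *Nr6a1*, known from germ cells, exceeded the WT mean in all 6 LKO livers, with 11.1, 12.9 and 14.7 normalized CPM (lowest, median and highest) in WT and 13.2, 14.4 and 16.6 in LKO livers. Its log2 fold change was 0.18 with an adjusted p of 0.460 by edgeR. Of the 14935 bp of exon of *Nr2c2*, 4590 bp overlap *Mrps25* on the opposite strand.

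*Hnf4a* had 674, 936 and 1188 normalized CPM (lowest, median and highest) in WT and 744, 869 and 1119 in LKO livers. The LKO livers all lay inside the WT range, and the log2 fold change was −0.063 (standard error 0.121, 95% interval −0.32 to 0.20, adjusted p = 0.892 by edgeR). *Hnf4g*, the intestinal relative of *Hnf4a*, was close to absent, with 2 to 6 reads in WT and 1 to 3 reads in LKO livers. Its fitted log2 fold change of −0.90 rests on those few reads (unadjusted p = 0.050, adjusted p = 0.428 by edgeR).

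Of the receptors that sense bile acids and foreign compounds, none was separated by genotype, and some spread widely between the livers of a group. *Nr1h4* had 142, 163 and 179.5 normalized CPM (lowest, median and highest) in WT and 125, 147 and 193 in LKO livers, so the LKO livers held both extremes. The log2 fold change was −0.064 (standard error 0.0990, 95% interval −0.28 to 0.15, adjusted p = 0.858 by edgeR). *Nr1i2*, which encodes the xenobiotic receptor PXR, had 65.5, 86.0 and 126 normalized CPM in WT and 73.0, 91.9 and 98.1 in LKO livers. Here the LKO livers lay inside the WT range, the means were 89.9 and 90.0 normalized CPM, and the 95% interval of the log2 fold change ran from −0.28 to 0.28 (adjusted p = 0.999, edgeR).

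*Nr1i3*, which encodes the second xenobiotic receptor CAR, spread over 24.4, 48.6 and 83.6 normalized CPM (lowest, median and highest) in WT and 32.2, 41.0 and 53.5 in LKO livers. The WT livers held both the lowest and the highest value, a 3.43-fold range. The log2 fold change was −0.31 (standard error 0.221, 95% interval −0.78 to 0.17, adjusted p = 0.637 by edgeR), and it was −0.10 without WT replicate 3, the highest liver. Of the 4414 bp of exon of *Nr1i3*, 3304 bp are shared with *Tomm40l* on the opposite strand, which had a log2 fold change of −0.28 (adjusted p = 0.576, edgeR). Per kilobase, *Nr1i2* held a median of 72.0% of the sum of the PXR and CAR genes in WT and 79.4% in LKO livers, with ranges of 70.3% to 86.8% and 74.4% to 83.7%. These shares and the place of *Nr1i3* in the order depend on how reads over the shared bases were counted, which is not known.

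*Nr5a2*, the receptor LRH-1 of bile acid and cholesterol genes, varied little between livers, with 83.1, 98.7 and 104 normalized CPM (lowest, median and highest) in WT and 82.1, 88.3 and 97.4 in LKO livers. A single LKO liver was above the WT mean, and the log2 fold change was −0.12 (standard error 0.0679, 95% interval −0.26 to 0.03, adjusted p = 0.541 by edgeR). *Nr0b2*, which encodes the corepressor SHP, a classic target of FXR, spread over 14.1, 19.1 and 44.3 normalized CPM in WT and 8.11, 26.7 and 32.3 in LKO livers. The highest of the 12 livers was 5.47 times the lowest, both genotypes held high and low livers, and the log2 fold change was −0.10 (standard error 0.359, 95% interval −0.87 to 0.66, adjusted p = 0.948 by edgeR).

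*Nr0b2* and its sensor *Nr1h4* ran in opposite directions across livers. LKO replicates 5 and 6 had the lowest *Nr0b2* (10.1 and 8.11 normalized CPM) and the highest *Nr1h4* of their group (174 and 193 normalized CPM). WT replicate 5 had the highest *Nr0b2* (44.3 normalized CPM) and the lowest *Nr1h4* of the WT livers (142 normalized CPM). Over the 12 livers Pearson's r of log2 CPM was −0.84 (two-sided permutation test, p = 0.0007, Benjamini-Hochberg adjusted p = 0.0042 over 6 pairs of receptors examined) and Spearman's rho was −0.81 (permutation p = 0.00206, adjusted 0.0124). Without the 2 livers farthest from the median of *Nr1h4*, LKO replicates 1 and 6, r was −0.81 (permutation p = 0.0058). Within LKO livers r was −0.95 (exact permutation p = 0.00278), and within WT livers it was −0.79 (exact permutation p = 0.0819), so the relation did not pass the threshold in WT livers alone. LKO replicates 5 and 6 also had the highest *Nr2f2* and *Esrra* and the lowest *Hnf4a* of their group. How many other genes followed *Nr1h4* as closely was not tested, so the relation cannot be called particular to this pair.

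**Figure D3:**
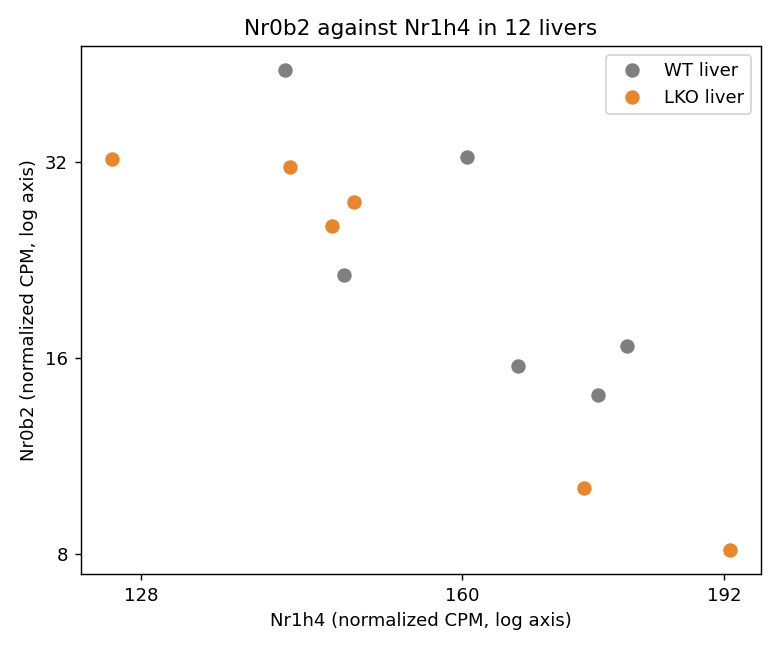
*Nr0b2* (vertical axis) against *Nr1h4* (horizontal axis) in normalized CPM on log axes, 1 point per liver, grey WT and orange LKO, n = 6 each. Livers with high *Nr1h4* had low *Nr0b2* in both groups, with Pearson's r of −0.84 over the 12 livers.

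The promoter of *Nr0b2* is shown because *Nr5a2* is known to drive *Nr0b2* through sites of its extended half-site type. The 250 bases before the RefSeq start of *Nr0b2*, at chr4:133553126-133553375 on the plus strand of GRCm38.p6, read as follows, with TCAAGG in capitals.
Nr0b2: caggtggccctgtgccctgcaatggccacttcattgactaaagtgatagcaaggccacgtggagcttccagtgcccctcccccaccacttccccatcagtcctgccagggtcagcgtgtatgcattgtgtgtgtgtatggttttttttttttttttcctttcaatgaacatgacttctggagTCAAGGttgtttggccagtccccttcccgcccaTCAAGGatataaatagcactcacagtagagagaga
The 2 copies of TCAAGG start 68 and 35 bases before the transcript start. Searched on both strands of promoters of 300 bases, TCAAGG was in 14.4% of 32851 mouse promoters and in 17.4% of the 46 promoters found for 30 of the receptor genes. The plain half-site AGGTCA was in 16.3% of all promoters and in 17.4% of those of the receptors, and that of *Nr0b2* held none. A match of letters is a description and not a site.

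The other pairs examined gave weaker relations. *Ppara* and *Nr1i3* were positively correlated over the 12 livers, with r of 0.67 (permutation p = 0.0137, adjusted 0.0411) and rho of 0.68 (permutation p = 0.0178, adjusted 0.0533). Without WT replicates 1 and 6, r was 0.64 (permutation p = 0.0445), but within genotypes it was 0.73 in WT (exact permutation p = 0.133) and 0.38 in LKO livers (exact permutation p = 0.444), so it kept its sign in both groups and did not pass the threshold in either group of 6. *Nr1i2* and *Nr1i3*, *Hnf4a* and *Nr1i3*, and *Nr4a1* with *Nr4a2* and with *Nr4a3* had r between −0.40 and 0.34, with adjusted permutation p from 0.331 to 0.654. The correlations with *Nr1i3* likewise depend on how reads over the bases shared with *Tomm40l* were counted.

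The hormone receptors stood lower in the order of levels than *Hnf4a*, *Rxra*, *Nr1h4* and *Ppara*. *Nr3c1*, the glucocorticoid receptor, had 93.8, 109 and 124 normalized CPM (lowest, median and highest) in WT and 89.5, 103 and 110.1 in LKO livers. The LKO values overlapped the lower part of the WT range, with a log2 fold change of −0.077 (standard error 0.0746, 95% interval −0.24 to 0.083, adjusted p = 0.742 by edgeR). *Nr3c2*, the mineralocorticoid receptor, had 2.50 RPKM in WT livers and *Esr1*, the oestrogen receptor, 1.57 RPKM, with log2 fold changes of 0.17 and −0.14.

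*Thrb*, the main thyroid hormone receptor of hepatocytes, had 46.4, 61 and 64.2 normalized CPM (lowest, median and highest) in WT and 38.5, 52.2 and 56.5 in LKO livers. None of the 6 LKO livers reached the WT mean, and the log2 fold change was −0.19 (unadjusted p = 0.0683, adjusted p = 0.472 by edgeR). *Thra* had 3.34 RPKM in WT livers and a log2 fold change of 0.031. *Thrb* held a median of 70.2% of the RPKM of this pair in WT (67.5% to 74.6%) and 66.4% in LKO livers (60.6% to 73.1%), so the ranges overlapped.

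The retinoic acid receptors were led by *Rara* (5.85 RPKM in WT livers), ahead of *Rarg* (1.14) and *Rarb* (0.136), and their log2 fold changes were −0.04, 0.10 and 0.43. *Rarb* had 7 to 26 reads per liver, and 1793 bp of its 5265 bp of exon overlap *Top2b* on the opposite strand. Of the oestrogen-related receptors, which act on mitochondrial genes, *Esrra* had 5.98 RPKM in WT livers against 0.227 RPKM for *Esrrg*, and their log2 fold changes were 0.062 and 0.11. The immediate early receptors of the NR4A group are induced within minutes by hormones and stress. *Nr4a1* had 1.02, 2.33 and 5.32 normalized CPM (lowest, median and highest) in WT and 0.649, 1.45 and 4.14 in LKO livers. The highest liver was 8.20 times the lowest, 1 of 6 LKO livers was above the WT mean, and the log2 fold change was −0.76 (standard error 0.452, 95% interval −1.72 to 0.21, adjusted p = 0.548 by edgeR). It was −1.25 without LKO replicate 1, −0.50 without WT replicate 5 and −0.52 without WT replicate 1.

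**Figure D4:**
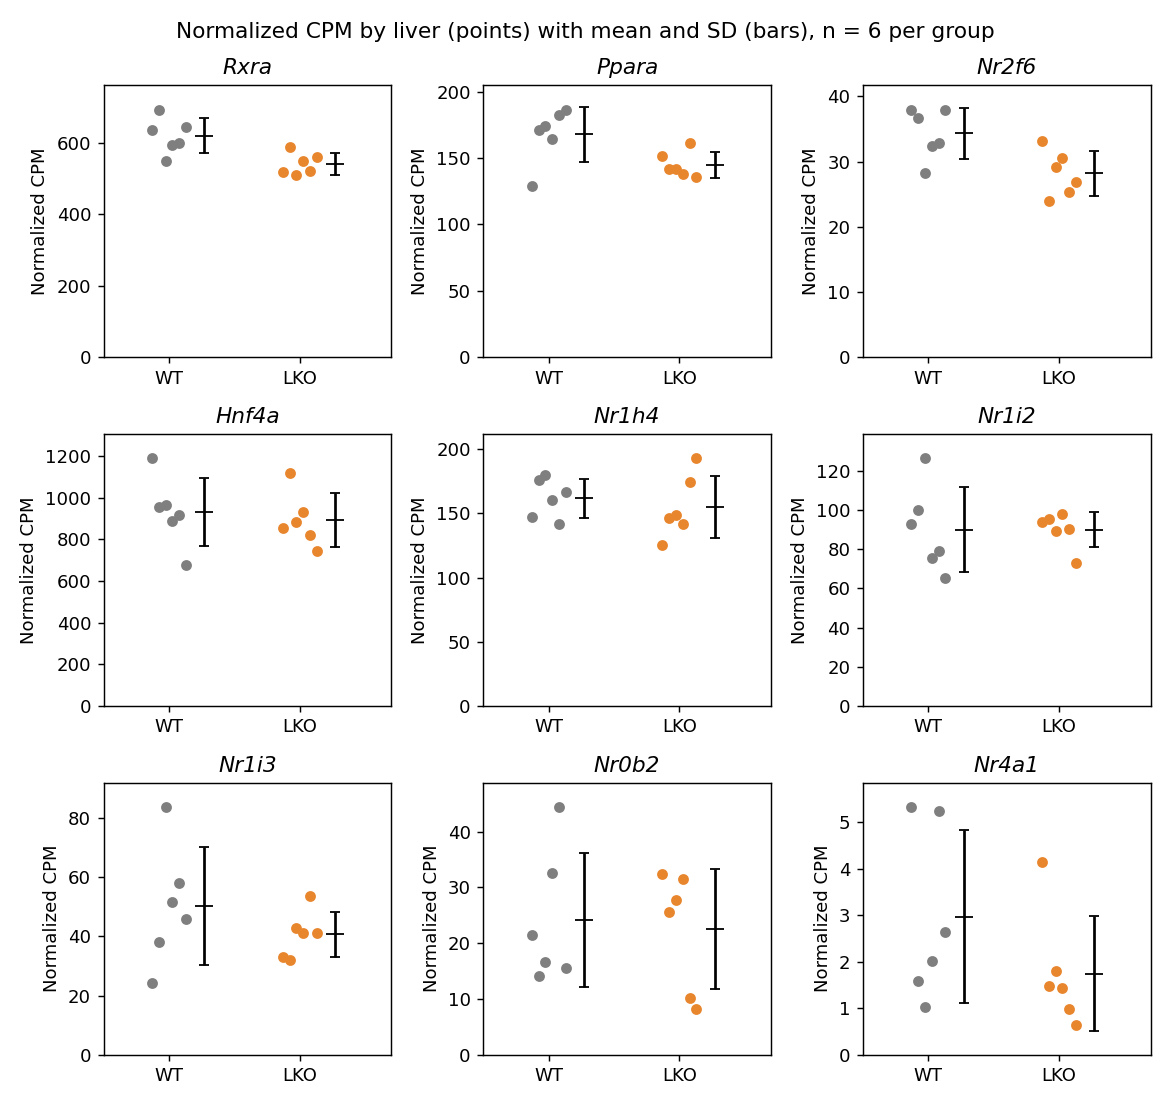
Normalized CPM (vertical axes, starting at 0) of 9 receptor genes in each liver, with WT points in grey, LKO points in orange, and the mean and SD of each group (n = 6) as black bars. *Rxra*, *Ppara* and *Nr2f6* have all LKO livers below the WT mean, whereas *Nr1i3*, *Nr0b2* and *Nr4a1* spread widely within a group.

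The proteins that receptors recruit and the genes they are known to control were counted from lists drawn up with earlier results of these data known. Of 21 coregulator genes, 16 were lower and 5 higher in LKO livers and none passed an adjusted p of 0.05, with a median log2 fold change of −0.065 against 0.00016 over all genes tested. The histone methyltransferase *Kmt2d* had a log2 fold change of −0.20 (adjusted p = 0.455 by edgeR). Of 18 known PPARA targets, which include enzymes of fatty acid oxidation, secreted factors and lipid droplet genes, 13 were higher and 5 lower and none passed the adjusted threshold. An unadjusted p under 0.05 was found for 7 of them, 6 higher and 1 lower (*Creb3l3*, −0.16), beside 11.7% of all genes tested. Their median log2 fold change was 0.40, while that of *Ppara* itself was −0.21. *Cyp4a14*, a fatty acid hydroxylase, had 181 ± 259 normalized CPM (SD, n = 6) in WT and 546 ± 485 in LKO livers (log2 fold change 1.6, adjusted p = 0.456 by edgeR), and *Acot2*, a mitochondrial thioesterase, had 3.29 ± 1.84 and 8.04 ± 4.33 normalized CPM (1.31, adjusted p = 0.142).

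A single gene of these lists passed the adjusted threshold. *Gstm1*, a glutathione transferase induced through CAR and PXR, rose from 719 ± 53.8 to 974 ± 54.6 normalized CPM (SD, n = 6), with a log2 fold change of 0.44 (standard error 0.0660) and an adjusted p of 0.00725 by edgeR, and its groups did not overlap. It has close paralogs that can share reads. Of the 13 CAR and PXR targets 5 were higher and 8 lower, with a median of −0.072, and *Alas1*, the first enzyme of haem synthesis, had a log2 fold change of 0.52 (adjusted p = 0.632). The 12 glucocorticoid receptor targets had 11 members lower and 1 higher (median −0.23), led by *Dusp1* (−0.65, adjusted p = 0.449) and *Tsc22d3* (−0.51, adjusted p = 0.667), and none had an unadjusted p under 0.05.

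Of 8 HNF4A targets 6 were lower and 2 higher (median −0.18), none passed the adjusted threshold, and 5 had an unadjusted p under 0.05 (11.7% of all genes tested). Among these, *F9*, coagulation factor IX, had 279 ± 11.3 normalized CPM (SD, n = 6) in WT and 243 ± 16.9 in LKO livers (−0.20, adjusted p = 0.191 by edgeR) with groups that did not overlap, and *Otc* of the urea cycle had a log2 fold change of −0.21 (adjusted p = 0.354). Of 8 FXR targets 6 were lower and 2 higher (median −0.23). This list holds both genes that FXR induces and genes that it represses, so the count and the median give no direction of FXR output. The largest folds belonged to the transporter subunits *Slc51b* and *Slc51a*, which had at most 11 and 6 reads in a liver. *Abcb11*, the bile salt export pump, had 874 ± 76.1 normalized CPM in WT and 758 ± 95.5 in LKO livers (−0.21, adjusted p = 0.380 by edgeR), the one FXR target with an unadjusted p under 0.05. Of 6 thyroid hormone targets 4 were higher and 2 lower (median 0.18), with *Hr* at 0.66 (adjusted p = 0.543) and *Me1*, malic enzyme, at 0.58 (adjusted p = 0.249). The level of *Hr* was low and uneven, with 0.893 ± 0.153 normalized CPM (SD, n = 6) in WT and 1.39 ± 1.14 in LKO livers. Of 4 tested retinoic acid targets 2 were higher and 2 lower, with *Cyp26a1*, which degrades retinoic acid, at 0.72 (adjusted p = 0.185). Among the 16 nuclear receptors outside the list, 9 were tested, 6 higher and 3 lower in LKO livers and none past the threshold, and their log2 fold changes ran from −0.14 to 0.70. The upper end was *Pparg*, the fat-storage relative of *Ppara*, with 3.62 ± 0.81 normalized CPM in WT and 5.83 ± 1.88 in LKO livers (adjusted p = 0.164 by edgeR).

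Markers of liver cell types were summed in each group, and *Ighm* was the only one of them past the adjusted threshold. All 8 hepatocyte markers were well above 0, and their summed level was 99265 to 121367 normalized CPM (median 102772) in WT and 92587 to 100119 (median 95879.6) in LKO livers, with 6 of 8 lower and none past the threshold. *Alb* alone made up most of this sum, with a mean of 76078 normalized CPM in WT and 66977 in LKO livers. All 8 Kupffer cell markers were higher (median log2 fold change 0.41, 7 with an unadjusted p under 0.05, beside 11.7% of all genes tested, and none past the adjusted threshold), and their sum was 112 to 151 normalized CPM in WT and 142 to 243 in LKO livers. All 7 stellate cell markers were higher without passing the threshold (195 to 297 normalized CPM in WT, 242 to 337 in LKO livers). Of 7 endothelial markers 6 were higher, of 6 bile duct markers 4 and of 4 tested T and NK cell markers 3, with none past the threshold. Of 6 B cell markers 5 were higher and *Ighm* was lower past the threshold (log2 fold change −1.78), and apart from *Ighm* these genes had at most 13 reads in a liver. The part of cell composition in the lower estimates of *Rxra*, *Ppara* and *Nr2f6* was not tested.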

How the data were processed

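RNA of 12 mouse livers (6 WT, 6 LKO, grouped by the genotype in the labels) was made into mRNA libraries with a KAPA kit. The deposited table holds raw read counts for each Ensembl gene, which the authors had neither normalized nor filtered. The submitters' processing notes name FastQC 0.11.15, Trimmomatic 0.36, HISAT2 2.1.0 and HTSeq 0.6.1, and the build GRCm38.p6. The strand setting of the counting is not given in the sources used here.

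Symbols, exon lengths and coordinates came from GENCODE M21 (GRCm38), which named 54079 of 54232 genes. Promoters came from RefSeq (GRCm38.p6). The filter of the study was kept, which asks for a count above 2 in 6 or more livers and left 17509 genes. Libraries were scaled with TMM factors, and the test was that of edgeR 4.0.16 in R 4.3.3 (quasi-likelihood, with genotype as the only term, Benjamini-Hochberg over all of them). The study's own test, limma voom, was an alternative. A standard error is the fold change divided by the root of F. A prior count of 0.5 was added for log2 CPM. A gene with 3 or fewer reads was taken as at the floor, and this depth covers counting error only. Reads carry no molecular identifiers. Median total counts were 15884817.5 (WT) and 17893575 (LKO).

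The members and the lists of coregulators, targets and markers were chosen with earlier results of these data known. Full values are given for receptors with an adjusted or unadjusted p under 0.05 and for the 10 highest in WT livers. *Thrb*, *Nr6a1*, *Nr4a1*, *Creb3l3*, *F9*, *Abcb11* and *Pparg* are outside the rules and were picked with their values in view. List genes are named if past the adjusted threshold or among the 2 largest folds of the list. Some genes of this rule are not reported here. Alternatives were RLE and upper-quartile scaling, library sizes without the 20 most abundant genes, no filter, at least 10 reads in every liver, filterByExpr, limma 3.58.1 voom, DESeq2 1.42.0, a block for the replicate number, 1 surrogate variable (sva 3.50.0), each liver left out, the longest transcript as length and a stricter detection limit.

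The tests were run on simulated data for LKO against WT with 200 of 17159 genes changed. The changed genes were drawn from those with a mean above 1 CPM. edgeR recovered 89% of genes changed by 1 on the log2 scale and 99% of those changed by 2, with 4.08% false calls, and called 0 when none was changed. Changes smaller than 1, the size estimated for every receptor tested, were not simulated, so these shares do not give the sensitivity for the receptors.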

Additional observations from a re-analysis of the deposited data

Results flagged for a closer look

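In the 6 livers of a group, a lowest or highest value was set apart when its gap to the nearest liver divided by the range of the group exceeded Dixon's 95% critical value for 6 values. Of 61 groups examined over the 31 tested receptors 4 were set apart, and chance sets apart about 1 in 20 groups, or 3.05 here. All 4 were lowest values. *Ppara* had 129 normalized CPM in WT replicate 1 against 164 to 186 in the other WT livers (gap 0.659 of the range). *Nr1i2* had 73.0 normalized CPM in LKO replicate 6 against 89.6 to 98.1 in the other LKO livers (0.690). *Thrb* had 38.5 normalized CPM in LKO replicate 1 against 50.9 to 56.5 (0.729), and *Esr1* had 11.9 normalized CPM in LKO replicate 5 against 19.3 to 24.5 (0.668).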

How the results depend on the processing

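No receptor passed an adjusted p of 0.05 under any of the 22 alternatives to the test, and the lowest adjusted p was 0.0813 for *Rxra* with DESeq2. With 1 liver left out *Nr1i3* ran from −0.44 to −0.10 and *Nr4a1* from −1.25 to −0.50. *Rxra* stayed between −0.23 and −0.16, *Ppara* between −0.28 and −0.18 and *Nr2f6* between −0.33 and −0.24 on the log2 scale. Over all genes, the number past the threshold was 75 by edgeR, 114 without a filter, 351 with DESeq2 and 219 with 1 surrogate variable, and 38 to 132 with 1 liver left out, 38 without WT replicate 5 and 132 without WT replicate 3. With the replicate block 97 genes passed, and 0 receptors. Of the same-numbered pairs of livers 4 of 6 deviated together with a correlation over 0.1. Of the WT livers 2 of 6 correlated best with their own number. These values do not settle whether the numbers mark pairs, and the main test did not use the numbers. Counts of receptors of at least 1 RPKM were 26 with the longest transcript, and 30 were detected with at least 10 reads in at least 6 livers.

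Of 677 estimates for single receptors under the alternatives, 42 had the opposite sign, in 12 genes whose log2 fold change was at most 0.14 in size. *Nr1i2* was −0.0031 with RLE and with DESeq2, *Rxrg* −0.025 with 1 surrogate variable, and *Nr2c1* −0.00055 with RLE, −0.0062 with limma voom and −0.0037 with DESeq2. With 1 liver left out the log2 fold changes ran from −0.075 to 0.12 for *Nr1i2*, −0.24 to 0.17 for *Nr0b2*, −0.14 to 0.020 for *Hnf4a*, −0.090 to 0.13 for *Rxrg*, −0.14 to 0.086 for *Rara*, −0.038 to 0.097 for *Thra*, −0.24 to 0.066 for *Esr1*, −0.025 to 0.16 for *Esrra*, −0.055 to 0.38 for *Esrrg*, −0.0022 to 0.096 for *Rora*, −0.016 to 0.13 for *Nr2f2* and −0.029 to 0.041 for *Nr2c1*. The cause was not tested.

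Of the correlations, that of *Nr4a1* with *Nr4a2* was 0.11 within LKO livers and 0.031 without the 2 livers farthest from the median, that of *Nr4a1* with *Nr4a3* was −0.66 within WT livers, and that of *Nr1i2* with *Nr1i3* was −0.24 within LKO livers and −0.50 without the 2 farthest livers. *Nr1h4* with *Nr0b2* gave −0.79 within WT livers, and *Ppara* with *Nr1i3* gave 0.73 within WT and 0.38 within LKO livers, none past the threshold in so few livers. Depth kept *Vdr* and *Nr4a3* from being tested and leaves *Hnf4g* with at most 6 reads per liver.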
